A study of Homo sapiens with 6 samples.

Results

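The 10 genes described here are those of MHC class II antigen presentation: HLA-DRA, HLA-DRB1, HLA-DPA1, HLA-DPB1, HLA-DQA1, HLA-DQB1, HLA-DMA, HLA-DMB, the invariant chain CD74 and the transactivator CIITA. They were taken by gene name from a count table of 58735 genes, and each name matched 1 row. The table holds polyadenylated RNA of 6 libraries of HepaRG, a single established human hepatic line whose progenitors can become hepatocyte-like or biliary-like cells. What all 6 share is differentiation with DMSO at 1.8%, an siRNA transfection of 48 h, and 24 h with oleic acid at 800 µM plus palmitic acid at 400 µM. Titles put 3 libraries under the name PTPF and 3 under STATF, and no label explains these names. The siRNAs of the study were aimed at PTPRD, a receptor-type tyrosine phosphatase, and at STAT3, a transcription factor of interleukin-6 signalling. No control-siRNA library was analysed here, so each value below compares the groups with each other. Whether replicates came from separate cultures is not stated, and the p-values therefore reflect only library-to-library spread, possibly technical.

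MHC class II molecules are pairs of an alpha and a beta chain that show peptides from endosomes to CD4 T cells. CD74 holds newly made pairs in the endoplasmic reticulum, guides them to endosomes and leaves a fragment in the peptide groove, which HLA-DM exchanges for a peptide. CIITA binds no DNA itself. It is recruited to a promoter module, the S, X and Y boxes, by the factors RFX, CREB and NF-Y, and it switches on class II genes together. Dendritic cells, B cells and macrophages express CIITA on their own, while many epithelial cells make it after interferon gamma.

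Promoter stretches of 5 members are shown because the X and Y boxes are the sequence through which CIITA acts on the class II genes. The sequences are from RefSeq (build GRCh38.p14), whose table held a window of 250 bases before to 50 bases after a start for 8 of the 10 genes; HLA-DRA and CIITA were not among them. Each line runs 5′ to 3′ on the gene's strand from base 160 before the start and ends before the first annotated exon base, at the latest at base 41. Capitals mark matches to an X-type word, AGNNACNGA, or a Y-type word, ATTGG, on either strand (CCAAT is the latter read on the opposite strand).
HLA-DRB1, chr6:32589889-32590008, minus strand: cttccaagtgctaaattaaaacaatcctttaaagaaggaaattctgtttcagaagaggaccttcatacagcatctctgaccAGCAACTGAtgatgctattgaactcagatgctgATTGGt
HLA-DMA, chr6:32953138-32953257, minus strand: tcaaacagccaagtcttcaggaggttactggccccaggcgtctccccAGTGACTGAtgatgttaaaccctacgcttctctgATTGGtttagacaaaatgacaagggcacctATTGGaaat
HLA-DMB, chr6:32941071-32941188, minus strand: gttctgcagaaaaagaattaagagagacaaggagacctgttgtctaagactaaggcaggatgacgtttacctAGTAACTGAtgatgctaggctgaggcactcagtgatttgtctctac
HLA-DPB1, chr6:33075830-33075925, plus strand: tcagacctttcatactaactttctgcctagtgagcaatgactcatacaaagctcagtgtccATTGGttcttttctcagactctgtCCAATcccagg
CD74, chr5:150412951-150413070, minus strand: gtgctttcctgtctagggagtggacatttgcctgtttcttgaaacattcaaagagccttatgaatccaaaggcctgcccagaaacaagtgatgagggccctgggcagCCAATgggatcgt
An X-type word followed by a Y-type word on the gene's strand, with starts 20 to 45 bases apart, stood in the windows of 4 of the 8 members: HLA-DRB1, HLA-DMA, HLA-DQA1 and HLA-DQB1. Among the stretches shown, those of HLA-DMB, HLA-DPB1 and CD74 came from windows without this arrangement. The windows of HLA-DPB1 and CD74 held no X-type word. The starts were 33 bases apart in HLA-DRB1 and HLA-DQB1, and 34 in HLA-DMA and HLA-DQA1. Of 35116 RefSeq windows of 300 bases, 71 (0.202%) held this arrangement, and 6 of the 71 belonged to HLA-D genes. An X-type word alone was in 15.3% and a Y-type word alone in 34.6% of all windows. The words and the spacing were chosen after the members' sequences were seen, and a match is a match of letters only. A window without a match can still hold a box that these words miss.

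Total counts ran from 33225627 to 40796767 per library. Levels are given in CPM, the counts scaled to library size with TMM factors. STAT3 had 443 ± 12.2 CPM under the name PTPF and 119.5 ± 10.6 CPM under STATF (SD, n = 3 each). PTPRD was at 11.5 ± 1.37 against 11.5 ± 0.602 CPM (SD, n = 3 each), a log2 fold change of 0.00 with an edgeR adjusted p of 0.999. The PTPRD ranges overlapped, and every direction below is therefore between libraries by label. In edgeR's quasi-likelihood test, with a threshold of 0.05 on the adjusted p, 21.6% of 17844 genes were called: 11.6% lower and 10.1% higher in PTPF-labelled libraries. Higher genes were 46.6% of the calls, but 28.1% when libraries were scaled by their totals alone, a scaling that moved the median of all genes to -0.06.

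Class II genes were lower in the libraries labelled PTPF. All 8 members that passed the filter on low counts also passed the test, each lower, where 11.6% of all tested genes were lower. Their median log2 fold change (PTPF minus STATF) was -1.32, beside 0.00 for all genes tested. Each of the 8 was above the filter's level of 0.273 CPM in all 6 libraries, so that none was tested on the strength of the STATF-labelled libraries alone. HLA-DQA1 and HLA-DQB1, with at most 5 counts in any library, were not tested. Groups did not overlap for any of the 8, as in 18.4% of all tested genes in this direction. In bulk RNA, fewer cells that express a gene and less RNA per cell cannot be told apart.

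**Figure D1:**
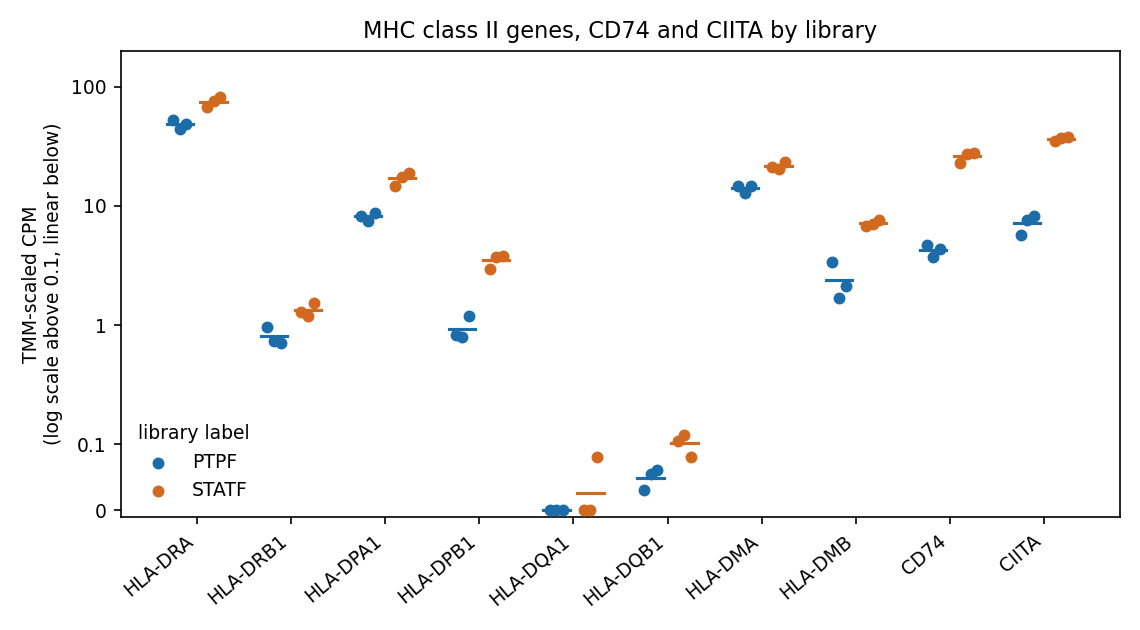
TMM-scaled CPM of the 10 genes in each library (points) with group means (lines), on an axis that is logarithmic above 0.1 and linear below. For the 8 tested genes every PTPF point lies under every STATF point, and the gap is widest for CD74 (4.25 against 26 CPM) and CIITA (7.14 against 36.4 CPM).

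CIITA, the transactivator, lies on chromosome 16 from 10866222 to 10943021 of GRCh38, plus strand. It stood at 5.67, 7.57 and 8.17 CPM in the PTPF-labelled and at 34.8, 37 and 37.5 CPM in the STATF-labelled libraries, on 187 to 278 and 1306 to 1541 counts. The lowest STATF-labelled library was thus well above the highest PTPF-labelled one. The ratio of the means was 5.10 and the log2 fold change -2.35 (SE 0.094, edgeR adjusted p = 9.24e-16). CIITA shared 23.4% of its exon bases with AC133065.1 and AC133065.3, both at 0 counts in all 6 libraries, and with DEXI on the opposite strand. The sources used here do not give the counting strand. DEXI, named after its values were seen, had 4.29 ± 0.463 against 8.40 ± 0.754 CPM (SD, n = 3 each), a log2 fold change of -0.97 (edgeR adjusted p = 8.42e-07). The part that shared exon bases had in either value was not tested.

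CD74, the invariant chain, lies on chromosome 5 from 150401637 to 150412929, minus strand, and shared no exon base with another gene. It was at 4.70, 3.70 and 4.35 CPM under PTPF and at 22.9, 27.2 and 27.8 CPM under STATF. This was the largest difference among the members, with a ratio of means of 6.11 and a fitted log2 difference of -2.61 ± 0.10 (SE, edgeR adjusted p = 7.38e-17). By p-value CD74 ranked at 16 and CIITA at 25 among the 17844 genes. The counts of CD74 per count of CIITA were 0.829, 0.489 and 0.532 under PTPF and 0.658, 0.735 and 0.742 under STATF. These ranges overlapped (two-sided exact permutation p = 0.4), and the difference of the log2 ratio was -0.24.

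HLA-DRA, the alpha chain of HLA-DR, was the most abundant member. It lies on chromosome 6 from 32439842 to 32445046, plus strand. Libraries labelled PTPF had 52.1, 44.3 and 48.2 CPM and those labelled STATF had 67.5, 75.7 and 81.7 CPM. The groups were apart, but the ratio of means was only 1.56 (log2 fold change -0.64, SE 0.069, edgeR adjusted p = 1.53e-07). The beta chain gene HLA-DRB1, on the minus strand from 32578769 to 32589848, had far fewer counts, 23 to 32 under PTPF and 48 to 57 under STATF. Its levels were 0.97, 0.735 and 0.704 against 1.28, 1.20 and 1.52 CPM, with a fitted log2 difference of -0.73 ± 0.26 (SE, edgeR adjusted p = 0.0452). That call was the weakest of the 8: it ended with DESeq2 (adjusted p 0.0772), with limma-voom (0.0529), without a filter (0.0721) and without PTPF replicate 2 or 3 or any 1 STATF replicate (0.0618 to 0.168). HLA-DRB genes are highly polymorphic and have close copies, so the counts of HLA-DRB1 are uncertain. In the annotation, 9.92% of the 50-base words of HLA-DRB1 transcripts also occurred in those of HLA-DRB5, HLA-DRB6 or HLA-DPB1.

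HLA-DP showed a wider gap in its beta than in its alpha chain. HLA-DPA1, the alpha chain, on the minus strand of chromosome 6 from 33064569 to 33080775, was at 8.25, 7.46 and 8.78 CPM under PTPF and 14.7, 17.5 and 18.7 CPM under STATF. The ratio of means was 2.08 (log2 fold change -1.06, SE 0.097, edgeR adjusted p = 3.3e-09). HLA-DPB1, the beta chain, on the plus strand from 33075926 to 33087201, was at 0.819, 0.79 and 1.19 against 2.93, 3.74 and 3.76 CPM. These levels rest on 27, 29 and 39 against 110, 156 and 141 counts. Here the ratio was 3.73 (log2 fold change -1.90, SE 0.21, edgeR adjusted p = 7.44e-08). The genes overlap head to head, and 1.67% of the exon bases of HLA-DPA1 and 3.44% of those of HLA-DPB1 are shared. The log2 count ratio of HLA-DPB1 to HLA-DPA1 was -3.15 ± 0.24 under PTPF and -2.29 ± 0.058 under STATF (SD, n = 3 each) and did not overlap (two-sided exact permutation p = 0.1, the smallest that 3 against 3 allow).

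HLA-DQ was hardly detected. HLA-DQA1 had 0 counts in 5 libraries and 3 in STATF replicate 3, which is at the floor of 3 counts that a count of 0 allows. HLA-DQB1 had 1, 2 and 2 counts under PTPF and 4, 5 and 3 under STATF. No test was made for either, and no fold is given for HLA-DQA1. HLA-DQA1 lies from 32628179 to 32647062, plus strand, and HLA-DQB1 from 32659467 to 32668383, minus strand, both on chromosome 6. At this depth the floor is 0.0735 to 0.0903 CPM per library, for counting error only. In the annotation, 2.07% of the 50-base words of HLA-DQA1 and 4.35% of those of HLA-DQB1 also occurred in other genes. HLA-DQA2 and HLA-DQB2 led these. Whether reads of HLA-DQ were lost in mapping was not tested.

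HLA-DM, the peptide exchanger of endosomes, was lower in both chains. HLA-DMA, on chromosome 6 from 32948613 to 32969094, minus strand, stood at 14.8, 12.9 and 14.6 CPM under PTPF and 21.3, 20.2 and 23.3 CPM under STATF. The ratio was 1.53 (log2 fold change -0.62, SE 0.081, edgeR adjusted p = 1.47e-06), close in size to HLA-DRA. HLA-DMB, from 32934629 to 32941070, minus strand, was at 3.37, 1.69 and 2.14 against 6.79, 7.08 and 7.66 CPM, a ratio of 2.99 (log2 fold change -1.59, SE 0.18, edgeR adjusted p = 3.18e-07). PTPF replicate 1 had the highest HLA-DMB and the lowest CIITA of its group. HLA-DMA shared 9.04% and HLA-DMB 9.41% of exon bases with other genes. Of these, AL645941.2 was at 0 in all 6 libraries and BRD2, which overlaps HLA-DMA, had a log2 fold change of 0.05 (edgeR adjusted p = 0.579).

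**Figure D2:**
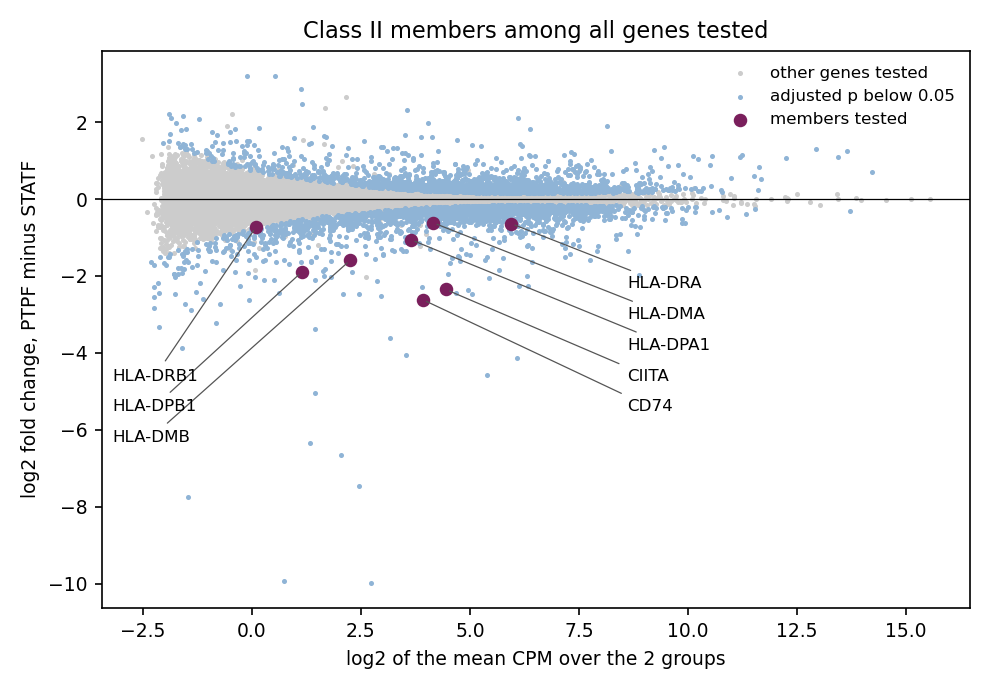
Log2 fold change (PTPF minus STATF) against the log2 of the mean CPM for all 17844 genes tested; the 8 tested members are labelled. All 8 lie below 0, from -0.62 for HLA-DMA to -2.61 for CD74.

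Differences within the group were read from count ratios, which do not depend on library scaling. In 10 log2 ratios between members, tested with two-sided exact permutation tests, the smallest possible p of 0.1 became 0.143 when adjusted over the 10. CD74 counts per HLA-DRA count were 0.0902, 0.0835 and 0.0902 under PTPF and 0.339, 0.359 and 0.34 under STATF. The ratio was thus 3.93 times as high in the STATF-labelled libraries, with little spread in either group (log2 ratio -3.51 ± 0.064 against -1.53 ± 0.046, SD, n = 3 each, exact permutation p = 0.1). CIITA per HLA-DRA differed by -1.73 on the log2 scale, HLA-DPB1 by -1.28, HLA-DMB by -1.004 and HLA-DPA1 by -0.42, each without overlap of the groups. HLA-DMA (0.02, exact permutation p = 0.9) and HLA-DRB1 (-0.10, exact permutation p = 0.5) overlapped between groups in their ratio to HLA-DRA.

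The members' counts were accordingly made up differently. HLA-DRA took 57.5%, 56% and 54.6% of the counts of the 10 genes under PTPF and 39.2%, 39.9% and 40.4% under STATF. CIITA took 8.36% ± 1.83 against 19.4% ± 0.819 and CD74 4.93% ± 0.252 against 13.8% ± 0.524 (SD, n = 3 each). Summed over the 10 genes, the level was 90.7, 79.2 and 88.2 CPM under PTPF and 172.3, 189.6 and 202.1 CPM under STATF, a ratio of means of 2.19.

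**Figure D3:**
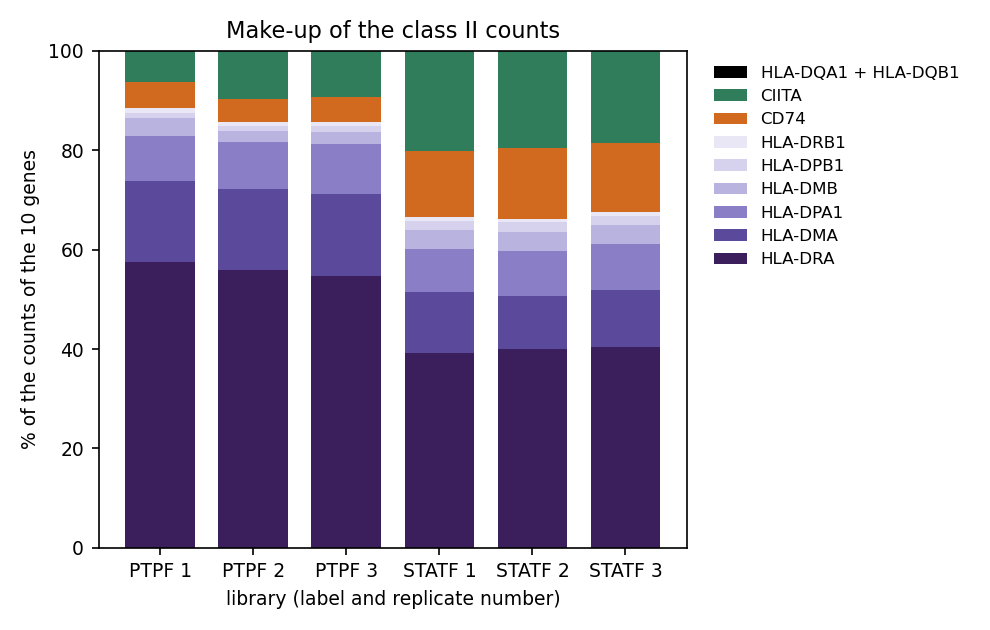
Share of each gene in the summed counts of the 10 genes, by library (bars sum to 100%). HLA-DRA holds 56% (mean of PTPF) against 39.8% (mean of STATF), and CD74 and CIITA take a larger part in STATF libraries.

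Between genes, levels were compared per length, in TPM, which divides counts by the deposited gene length before scaling. Under STATF HLA-DRA was highest at 150 ± 11.5 TPM (SD, n = 3), above 97.1% of the tested genes. HLA-DMA (21.8 ± 1.30 TPM) and CD74 (20.9 ± 1.83 TPM) followed, and their ranges of 20.5 to 23.1 and 18.8 to 21.9 TPM overlapped. Below them came HLA-DPA1 (7.56 ± 0.78), CIITA (4.49 ± 0.106), HLA-DMB (3.95 ± 0.168), HLA-DPB1 (3.19 ± 0.391) and HLA-DRB1 (2.78 ± 0.308 TPM), with HLA-DPB1 and HLA-DRB1 overlapping (SD, n = 3 each). In PTPF-labelled libraries HLA-DRA (92.3 ± 4.89 TPM) and HLA-DMA (13.6 ± 0.864 TPM) were still the highest, and CD74 at 3.27 ± 0.309 TPM was beside HLA-DPA1 at 3.49 ± 0.295 (SD, n = 3 each). CIITA's place rests on its deposited length of 20757 bases, the longest of the 10. The alpha chain HLA-DRA was 54.0 times the level of the beta chain HLA-DRB1 in TPM under STATF and 57.8 times under PTPF, with the uncertainty of HLA-DRB1 given above.

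Further genes of the class II locus were at low levels. HLA-DRB5, a second DR beta chain, was at 1.20 ± 0.39 against 1.64 ± 0.26 CPM (SD, n = 3 each; log2 fold change -0.47, edgeR adjusted p = 0.198), and the pseudogene HLA-DRB6 had a log2 fold change of -0.40 (edgeR adjusted p = 0.456). HLA-DOA and HLA-DOB encode HLA-DO, an inhibitor of HLA-DM that is known mainly from B cells. They had 9 against 70 and 12 against 40 counts, summed over 3 libraries, and both passed the test (log2 fold changes -2.73 and -1.52, edgeR adjusted p = 0.000712 and 0.0493). Each passed the filter through the STATF-labelled libraries, so these calls are no support for the direction, and that of HLA-DOB ended under 7 of the 13 alternatives that gave it an adjusted p (up to 0.215). DESeq2 gave neither gene an adjusted p, and a filter of at least 50 counts in 3 libraries left both out, so that neither was called there. HLA-DQA2 (9 against 19 counts) and HLA-DQB2 (1 against 14) were not tested, and HLA-DQB1-AS1 was at 0 in all libraries. HLA-DRB3 and HLA-DRB4 had no row under these names in the count table.

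Of the 7 genes of the promoter complex that recruits CIITA, 2 were lower in PTPF-labelled libraries and 5 did not pass, with a median log2 fold change of 0.05. Over all tested genes, 11.6% were lower and 10.1% higher. This list and those below were chosen with earlier results of these data known. RFX5, the DNA-binding subunit of RFX, was at 24.2 ± 1.55 against 32.7 ± 2.26 CPM (SD, n = 3 each; log2 fold change -0.43, edgeR adjusted p = 3.78e-05). Its partner subunits were at log2 fold changes of 0.30 (RFXAP, edgeR adjusted p = 0.0749) and -0.06 (RFXANK, edgeR adjusted p = 0.679). NFYC of the Y-box factor NF-Y was lower by a small amount (-0.19, edgeR adjusted p = 0.0424), a call that 8 of 15 alternatives ended. NFYA (0.07), NFYB (0.05) and CREB1 (0.05), which binds beside RFX, did not pass. The 95% intervals of NFYA, NFYB, CREB1 and RFXANK lay between -0.22 and 0.22.

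**Figure D4:**
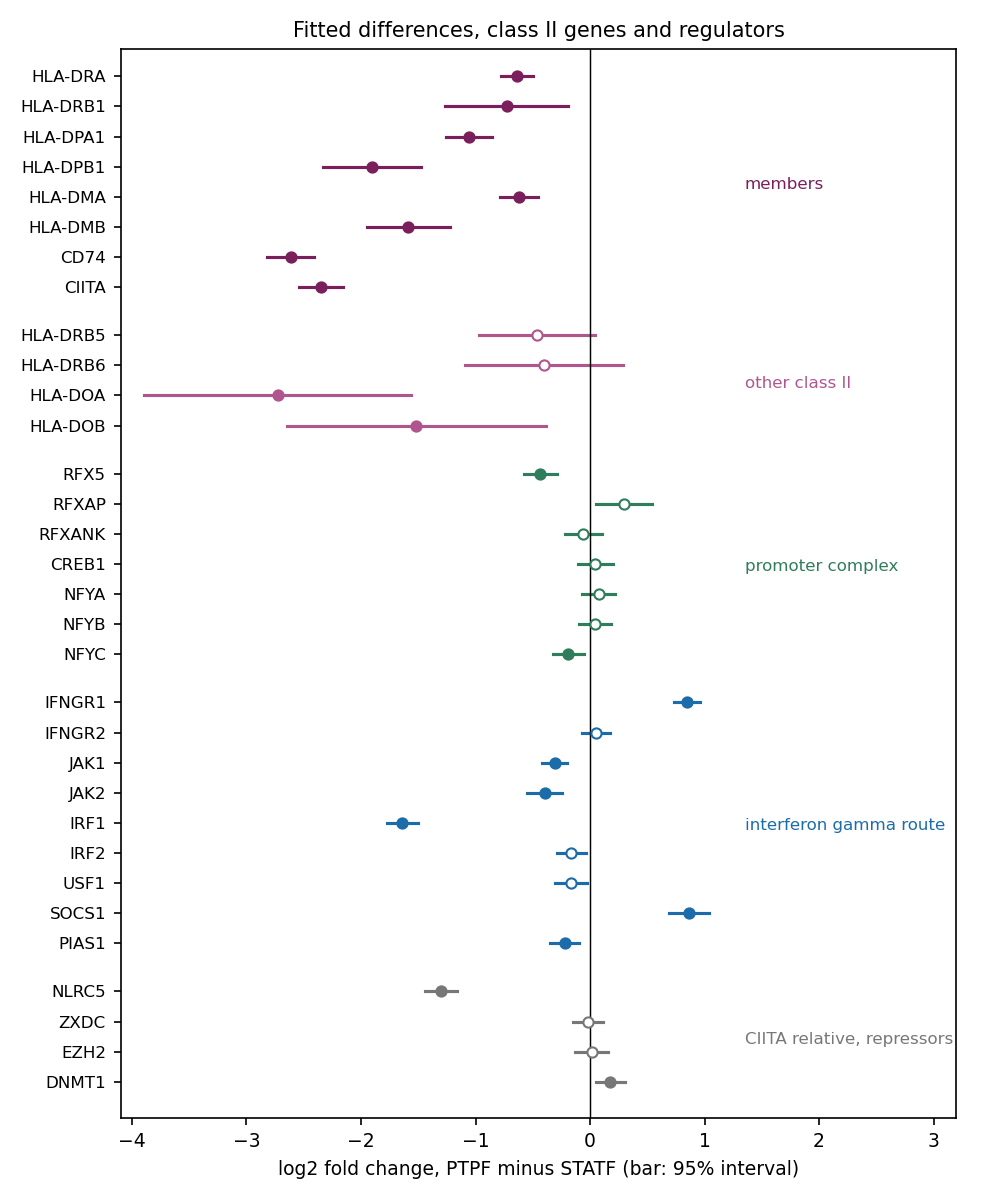
Fitted log2 fold changes with 95% intervals for tested class II genes and the regulators reported here; filled points passed an edgeR adjusted p of 0.05. The 8 members lie left of 0, and most of the promoter complex lies near 0 (RFX5 at -0.43, RFXAP at 0.30). Of the other regulators, IRF1 (-1.64) and NLRC5 (-1.30) lie farthest left, and IFNGR1 (0.84) and SOCS1 (0.87) farthest right.

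Of 10 genes on the route from the interferon gamma receptor to CIITA, 5 were lower, 2 higher and 3 did not pass, with a median log2 fold change of -0.19. Among all tested genes, 11.6% were lower and 10.1% higher. IRF1, which binds the CIITA promoter, was at 46.1, 37.4 and 41.1 CPM under PTPF and 126, 128.4 and 133.4 CPM under STATF (log2 fold change -1.64, edgeR adjusted p = 1.27e-16). The kinases JAK1 (-0.31) and JAK2 (-0.40) and the SUMO ligase PIAS1 (-0.22) were lower by less, and PIAS1 did not pass without STATF replicate 2 (edgeR adjusted p = 0.0597). Opposite to these, the receptor chain IFNGR1 was higher, at 297 ± 6.6 against 165.5 ± 6.99 CPM, and so was SOCS1, the feedback inhibitor of JAK kinases, at 18.3 ± 0.822 against 10 ± 0.859 CPM (SD, n = 3 each). IFNGR2 (0.05), IRF2 (-0.16) and USF1 (-0.17) did not pass. With library totals as scaling, IRF2 (edgeR adjusted p = 0.00943) and USF1 (0.0153) were lower too, which made 7 lower genes. IRF2 also passed with the filter of at least 50 counts (0.048) and USF1 without PTPF replicate 1 (0.0351).

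NLRC5, the relative of CIITA that acts on class I genes, was at 23.6, 29.1 and 25.4 CPM under PTPF and 66.4, 62.9 and 63.6 CPM under STATF (log2 fold change -1.30, edgeR adjusted p = 4.18e-14). The repressor gene PRDM1 had 7 counts over all libraries and was not tested. ZXDC (-0.02) and EZH2 (0.01) did not pass, and DNMT1 was higher by 0.18 (edgeR adjusted p = 0.0423), a call that 8 of 15 alternatives ended. Of 14 class I genes and peptide-loading genes, 11 were lower and none higher, with a median of -0.64. For all tested genes the shares were 11.6% lower and 10.1% higher. The peptide transporter TAP1 had a log2 fold change of -1.58 and HLA-B one of -0.07 (edgeR adjusted p = 0.505).

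The endosomal list holds proteases that cut the invariant chain and antigens, and also genes that are not proteases. Of 18 tested, 5 were lower, 3 higher and 10 did not pass, with a median of -0.07. Shares over all tested genes were 11.6% lower and 10.1% higher. CTSS, the cathepsin that trims CD74 in professional antigen-presenting cells, was at 22.1 ± 1.87 against 30.1 ± 1.67 CPM (SD, n = 3 each; log2 fold change -0.44, edgeR adjusted p = 3.94e-05). Also lower were the proteases CTSO (-0.48), CTSZ (-0.19) and SPPL2A (-0.20) and the lysosomal regulator TFEB (-0.36). The 3 higher genes were the cathepsin CTSL (0.18), the ubiquitin ligase MARCH1 (0.28) and the chaperone CANX (0.28). CTSZ, SPPL2A, CTSL and MARCH1 were named after their values were seen. The abundant cathepsins CTSD (0.10) and CTSB (-0.08) did not pass. With library totals as scaling, 9 of these genes were lower and 1 higher; 3 were lower without STATF replicate 3, and 1 was higher without PTPF replicate 1, STATF replicate 1 or STATF replicate 2.

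Among 9 tested genes of costimulation and adhesion, 6 were lower and 0 higher, beside 11.6% and 10.1% of all tested genes. The median of the 9 was -0.36. The 2 classical ligands CD80 and CD86 had 6 and 14 counts over all libraries and were not tested. CD40, a receptor through which T cells act on presenting cells, was at 33.3 ± 1.79 against 54.8 ± 2.32 CPM (SD, n = 3 each; log2 fold change -0.72, edgeR adjusted p = 8.61e-10). The inhibitory ligands CD274 (-1.17) and PDCD1LG2 (-1.48) were lower, as were CD276 (-0.26) and the adhesion molecule ICAM1 (-0.23).

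**Figure D5:**
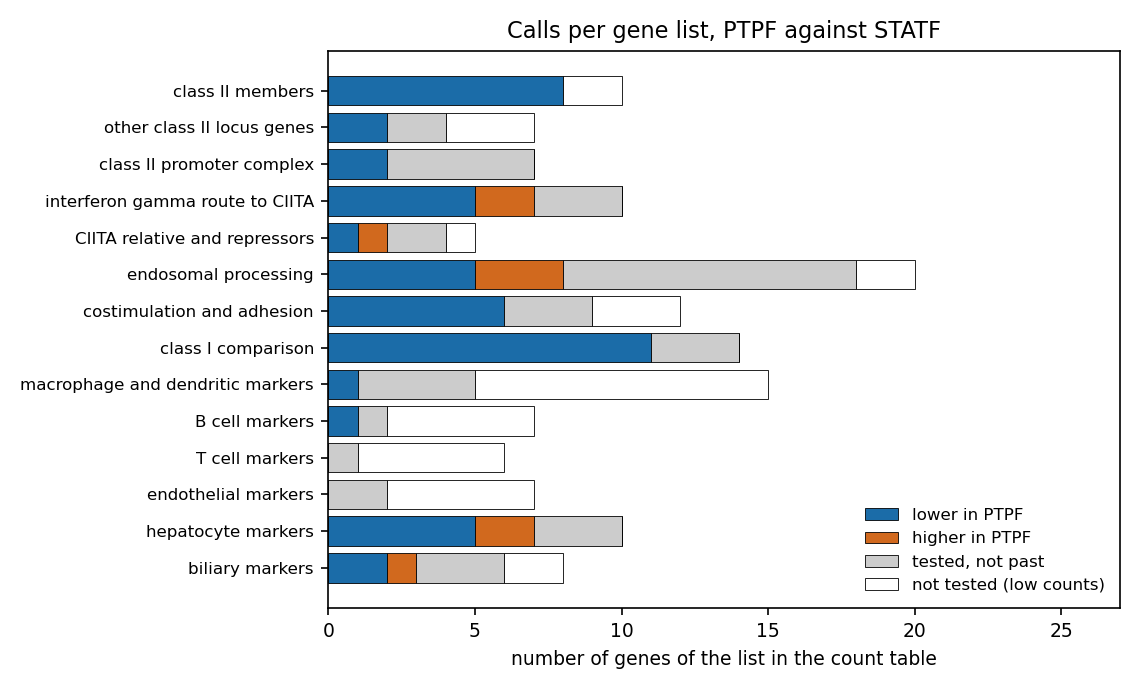
Number of genes of each list that were lower, higher or not past an edgeR adjusted p of 0.05, or not tested for low counts. The 8 tested members are all in the lower class, beside 11 of 14 class I genes and 2 of 7 promoter complex genes. Of all genes tested, 11.6% were lower and 10.1% higher.

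Hepatocyte markers were detected in all libraries at very different levels. They ran from AHSG, named after its values were seen, at 17.2 CPM under PTPF and 21.1 CPM under STATF to ALB at 11995 and 14853 CPM. Of 10 such markers 5 were lower (3 without PTPF replicate 2 or STATF replicate 1), among them ALB (-0.31). The 2 higher ones included ASGR1 (0.49). The lowest log2 fold change of the 10 was -1.34, the highest 1.06 and the median -0.19. Of all tested genes, 11.6% were lower and 10.1% higher. The biliary markers KRT19 (-0.57) and SOX9 (-0.40) were lower and CD24 (0.62) higher; of 6 tested, 2 were lower and 1 higher, and EPCAM was listed at 0. Markers of professional antigen-presenting cells ranged from absent to clearly detected, and those given here beyond LAPTM5, ITGAM, CD22 and BANK1 were named after their values were seen. Over all 6 libraries PTPRC, the leukocyte antigen CD45, had 1 count, MS4A1 had 1, and TYROBP, CD1C and VSIG4 had 0. The 15 macrophage and dendritic markers summed to 44.5 to 46.9 CPM under PTPF and 50.8 to 57.1 CPM under STATF. LAPTM5 made up most of this, at 39.7 against 47.7 CPM (log2 fold change -0.26, edgeR adjusted p = 0.00331), and ITGAM had 368 against 392 counts, summed over 3 libraries (log2 fold change 0.10). ITGAX, the dendritic and macrophage integrin CD11c, had 16, 19 and 26 counts under PTPF and 37, 52 and 31 under STATF. Its groups did not overlap, as for the members and for 18.4% of all tested genes in this direction. The log2 fold change of ITGAX was -0.77, which did not pass (edgeR adjusted p = 0.0735). The scavenger receptors CD163 (114 against 168 summed counts, log2 fold change -0.37, edgeR adjusted p = 0.314) and MARCO (39 against 68, -0.61, edgeR adjusted p = 0.34) overlapped between groups. Of 5 macrophage and dendritic markers tested, 1 was lower, and 2 were without PTPF replicate 3. The 7 B cell markers summed to 1.16 to 1.85 against 2.03 to 2.33 CPM. CD22 made up most of the STATF-labelled sums. It was lower (0.48 against 1.44 CPM, log2 fold change -1.58), the 1 called of 2 tested. BANK1, the other tested, had 79 against 80 summed counts (log2 fold change 0.18, edgeR adjusted p = 0.761). CD79A went the other way, with 13 against 4 summed counts, and was not tested. T cell markers summed to 1.39 to 1.74 against 1.01 to 1.36 CPM, most of it CD3D, and endothelial markers to 1.04 to 1.67 against 1.61 to 2.16 CPM, with none called in edgeR of 1 and 2 tested. The part of the CD22 difference and of the macrophage marker differences in the class II values was not tested.

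The non-member genes with the pattern most like the members were sought by Pearson's r over the 6 libraries with the mean log2 CPM of the 8 tested members, among 11714 protein-coding genes whose mean log2 CPM was 1 or more. The first 5 were the RNA sensor IFIH1 (0.999), the growth factor NRG4 (0.999), the guanylate-binding protein GBP2 (0.998), FBXO8 (0.998) and the exocyst subunit EXOC4 (0.998). IFIH1 (-1.02), GBP2 (-0.65), NRG4 (-0.43) and FBXO8 (-0.27) were lower in PTPF-labelled libraries by these log2 fold changes, and EXOC4 (-0.13) did not pass (edgeR adjusted p = 0.0872). The 6 points share 2 groups, and 78 genes had an r above 0.99.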

How the data were processed

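For these 6 libraries the authors deposited 1 table of raw gene counts with Ensembl identifiers. Per the labels' protocols, mRNA was caught with poly-T beads and copied from random hexamers. The submitters' processing notes name CASAVA 1.8, HISAT2 2.0.5, featureCounts 1.5.0-p3 and the build GRCh38. Strand, multi-mapping and annotation release: not given in the sources used here. Every one of the 58735 identifiers had the same position in GENCODE release 29, which gave exon overlaps and shared words. The table's gene length, deposited in bases (an other unit), served for TPM.

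Groups came from the titles. After filterByExpr (at least 0.273 CPM in 3 libraries) and TMM (factors 0.953 to 1.03), genes were tested by group alone with the robust quasi-likelihood test of edgeR 4.0.16 (R 4.3.3) and Benjamini-Hochberg adjustment over all genes. SE and 95% intervals derive from the F statistic, and floors cover counting error only. Alternatives were other scalings and filters, DESeq2 1.42.0, limma-voom (limma 3.58.1), a replicate block, leaving out each library and leaving out mitochondrial genes. The members and gene lists were chosen with earlier results of these data known, and the promoter words after the sequences were seen. Named were all genes of the class II, promoter complex, interferon and CIITA relative lists, and of other lists up to 4 called genes and the 2 most expressed, of which the text gives a part; some genes of these lists are counted but not reported here by name. The 5 non-members most like the members by Pearson's r were added, as were genes given in the text as named after their values were seen. Library pairs of a group differed by more than sampling noise, with a chi-square of 4.01 to 10.9 per df. On data simulated from these libraries (PTPF against STATF, 17611 genes), edgeR recovered 84% of 50 genes changed 1.5-fold and 96% of 50 changed 2-fold. The changed genes were drawn only from those with a mean CPM well above the filter's level. These shares therefore do not cover genes as low as HLA-DOA or HLA-DOB.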

Additional observations from a re-analysis of the deposited data

How the results depend on the processing

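The 8 tested members were lower under every alternative in which they were tested, and 7 of them passed under each of the 15. The exception was HLA-DRB1, as given above, which a filter of at least 50 counts in 3 libraries left out. The members called were 7 or 8 throughout. CD74 ranged from -2.70 to -2.51, CIITA from -2.45 to -2.21 and HLA-DRA from -0.71 to -0.57 on the log2 scale. With library totals as the only scaling the median of all genes was -0.06, and 1164 genes were higher, 28.1% of the calls against 46.6% with TMM. Leaving out a library gave 2830 to 3808 calls in place of 3863. Whether replicate numbers pair the libraries was not settled. Deviations from the group means correlated at 0.0347, 0.0578 and 0.000769 for equal numbers and at -0.0699 to 0.0332 for unequal ones. PTPF replicates 1 and 2 correlated best with their own number and PTPF replicate 3 did not. With the replicate number as a block, 4145 genes and the same 8 members passed.

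Values that changed sign were small and did not pass in either fit; the cause was not tested. With library totals these were CREB1 (-0.016), NFYB (-0.018), IFNGR2 (-0.016), EZH2 (-0.049) and PTPRD (-0.061). PTPRD was also below 0 without a filter (-0.00582), with limma-voom (-0.0038) and with the replicate block (-0.00316). Without single libraries PTPRD had values from -0.076 to 0.089, RFXANK -0.12 to 0.032, CREB1 -0.0014 to 0.090, NFYB -0.024 to 0.086, ZXDC -0.047 to 0.0063, EZH2 -0.026 to 0.060, BANK1 -0.11 to 0.43 and STAB2 -0.25 to 0.14. The place of CIITA in the order of levels in STATF-labelled libraries was 5 by deposited length, 2 without length, and 6 with the longest coding transcript as length, an alternative added after the data were seen. Depth limits HLA-DQA1, HLA-DQB1, HLA-DOA, HLA-DOB, HLA-DRB1 and HLA-DRB6, with fewer than 60 counts per library each. It also limits HLA-DPB1 in the PTPF-labelled libraries, which held 27 to 39 counts of this gene.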
